A study of Mus musculus with 18 samples.

Results

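The replication-dependent histone genes lie in clusters and encode the core histones H2A, H2B, H3 and H4 and the linker histone H1. Entries were taken by name from 4 deposited expression tables (symbols that begin with Hist1h to Hist4h, also inside a comma-joined name). This gave 74 entries among the 56589 distinct names of the 4 tables, with 66, 65, 70 and 70 of them in the *Kdm2b* hippocampus, *Kdm2b* neurosphere, *Kdm2b* cortex and *Rnf2* hippocampus tables. Where a name had several entries, the one with the highest mean was kept.

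All samples came from mice at postnatal day 0. Control hippocampi, cortices and neurospheres were *Kdm2bfl/+* or *Kdm2bfl/fl*, which the labels do not tell apart, and cKO samples were *Kdm2bEmx1-delta-CxxC*, in which *Emx1*-Cre removes the exon for the CxxC zinc finger in dorsal telencephalic progenitors. The second mutant, *Rnf2Emx1-cKO*, was compared with *Rnf2fl/+* or *Rnf2fl/fl* hippocampi. Groups held 3 control and 3 cKO hippocampi, and 2 and 2 libraries in each of the other comparisons. Neurospheres are floating cultures of hippocampal neural progenitors grown with FGF2 and EGF, here for 3 generations in culture before sequencing. *Emx1*-Cre does not act in cells of other origin, which stay in the dissected tissue. The labels do not say that replicates were separate animals or cultures, so p-values measure the spread between these libraries, which may be technical.

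During S phase a cell makes new histones for the DNA it copies. Messenger RNAs of these genes usually carry no poly(A) tail: they end in a short stem-loop that SLBP binds and that the U7 snRNP machinery cuts behind. Some members also give polyadenylated RNA, as is known above all in cells that have stopped dividing. The libraries here were made from RNA selected on poly(T) beads, so a level below is that of histone RNA that passed the selection, and how much stem-loop RNA was lost was not tested. KDM2B binds unmethylated CpG islands through its CxxC finger and brings a Polycomb repressive complex there, and *Rnf2* encodes Ring1B, the catalytic subunit of that complex.

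By GENCODE vM21 (GRCm38) the rule matched 70 genes, 67 of them protein-coding. The Hist1 genes, 56 in number, lie on chromosome 13, the 10 Hist2 genes on chromosome 3, the 3 Hist3 genes on chromosome 11 and *Hist4h4* on chromosome 6. A stem-loop pattern was found in the annotated transcript of 45 of the 70 genes and in 86 genes of the whole annotation (0.155%). The 45 genes held 8 different 16-base stem-loops. The commonest was shared by 25 genes of the H1, H2A, H2B and H3 families, whereas all 12 H4 genes with a match carried 1 of 4 other stem-loops, found in no other family. The stem-loops below belong to the members on which the values turn (capitals mark the 16 bases of stem and loop, with 5 bases on each side, from the GENCODE transcripts, 5′ to 3′).

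Hist1h1c: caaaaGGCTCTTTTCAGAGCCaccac
Hist3h2ba: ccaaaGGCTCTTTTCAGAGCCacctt
Hist1h2bg: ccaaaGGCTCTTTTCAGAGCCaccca
Hist1h3c: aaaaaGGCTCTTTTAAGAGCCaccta
Hist1h3g: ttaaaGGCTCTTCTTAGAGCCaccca
Hist1h4h: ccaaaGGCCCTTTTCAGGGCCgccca
Hist1h4i: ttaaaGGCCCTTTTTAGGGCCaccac
Hist1h4a: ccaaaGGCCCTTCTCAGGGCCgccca

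The annotated transcript ended within 200 bases of the stem-loop in 27 genes and ran on for 330 to 4884 bases in 18. No match lay in the annotated transcript of 22 further protein-coding genes, *Hist1h2bc*, *Hist2h2be* and *Hist1h1b* among them. In the cortex, 8 of the 27 genes that end near the stem-loop, 5 of the 18 that run on and 6 of the 22 without a match had a mean of at least 0.5 FPKM (mapped fragments of a library, scaled by its depth and by transcript length). In the neurospheres these were 10 of 24, 8 of 14 and 8 of 22. Many members are near-copies of each other. For each transcript, the share of its 150-base windows found letter for letter in another gene had a median of 24.4%, was 100% for *Hist1h2bq*, *Hist2h2aa2* and *Hist2h3c1*, and was 0% for 16 genes. Among members described below it was 28.0% for *Hist1h4h*, 26.7% for *Hist1h2bp*, 26.0% for *Hist1h3g*, 23.1% for *Hist1h4a*, 22.3% for *Hist1h2bj*, 17.4% for *Hist1h2bc* and 15.6% for *Hist1h3c*, so their reads could be split with copies. Higher shares stand beside the member. It was 5.615% for *Hist1h2ac*, 2.08% for *Hist1h4i* and 1.24% for *Hist1h4f*.

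A library of poly(A)-selected RNA held little of these transcripts. Their summed level was 170 to 210 FPKM in the *Kdm2b* hippocampi, 304 to 488 in the neurospheres, 241 to 295 in the cortices and 71.1 to 108 in the *Rnf2* hippocampi. This was 0.0269 to 0.109% of the FPKM of all named entries in a library. Between 27 and 54 members were above 0 in a library, and 15, 8, 10 and 18 members were listed at 0 in every library of the 4 tables in the order given above. The germline members *Hist1h1t*, *Hist1h2aa* and *Hist1h2ba*, known from germ cells, were listed at 0 in all libraries but neurosphere control 1, where *Hist1h1t* stood at 0.0772 FPKM. Tables were normalized separately, so levels are compared within a table.

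**Figure D1:**
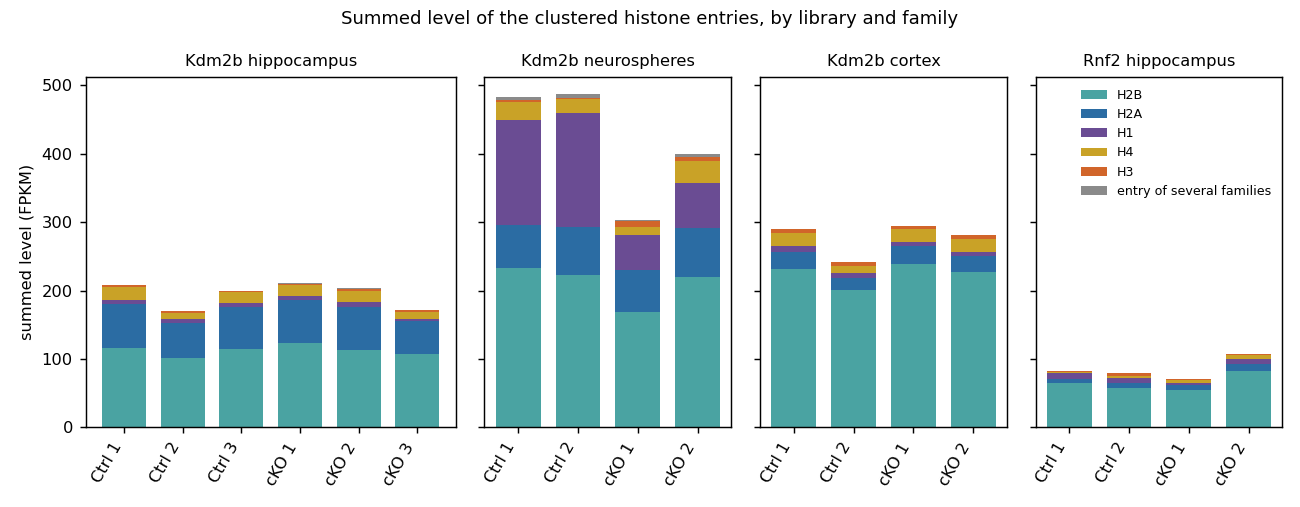
Summed level in FPKM of the clustered histone entries in each library, with 1 panel per table and colours for the histone families (grey for entries that name genes of several families). H1 makes up most of the difference between neurosphere groups, from 153 and 167 FPKM in controls to 51.0 and 65.4 in cKO.

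Neighbouring genes of cluster 3 supplied most of the signal in the tissue libraries. *Hist3h2ba*, an H2B gene (chr11:58948920-58949533, plus strand, no window shared with another gene), was the highest member in all libraries except the 2 neurosphere controls. Its level was 90.2, 81.2 and 96.1 FPKM in control hippocampi and 98.7, 84.7 and 89.7 in cKO hippocampi. In the neurospheres it stood at 119 and 111 in controls and at 102 and 130 in cKO. The groups overlapped in both tables, and the log2 fold changes of cKO over control were 0.030 ± 0.074 (SE, adjusted p = 0.863) and 0.0054 ± 0.132 (adjusted p = 0.982, limma with Benjamini-Hochberg adjustment). The cortices gave 213 and 180 FPKM in controls and 218 and 205 in cKO, which 2881, 2353, 2623 and 2359 recovered reads support. In the *Rnf2* hippocampi the level was 54.6 and 45.9 in controls and 46.7 and 68.8 in cKO, again with overlap.

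*Hist3h2a*, an H2A gene of the same cluster, was second in the hippocampus and cortex tables. The hippocampus and neurosphere tables join it with *Trim17*, with which it shares 28.0% of its windows, so that entry does not separate the genes. That entry was 61.0, 48.0 and 57.9 FPKM in control hippocampi and 59.9, 58.1 and 43.7 in cKO, and 59.7 and 67.7 in control neurospheres and 58.4 and 64.9 in cKO. The groups overlapped in both tables. Cluster 3 as a whole held 72.5 to 80.3% of the summed level in the hippocampi, 79.0 to 81.1% in the cortices and 65.2 to 73.3% in the *Rnf2* hippocampi. In neurospheres it held 37.0 and 36.6% in controls and 52.9 and 48.6% in cKO, and *Hist1h1c* was the highest entry in those controls.

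**Figure D2:**
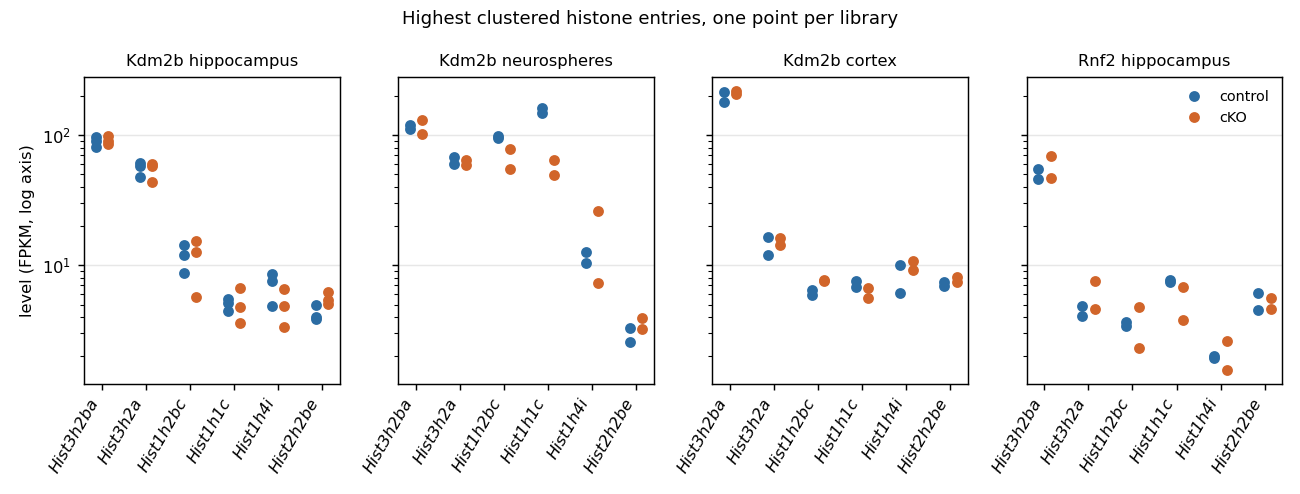
Level in FPKM on a log axis of the 6 highest entries, 1 point per library, controls in blue and cKO in orange (the *Hist3h2a* entry includes *Trim17* in the first pair of panels). Groups overlap for *Hist3h2ba* and *Hist3h2a* in each panel. They stand apart for *Hist1h1c* and *Hist1h2bc* in the neurospheres, as in 66.4% of all genes tested there. Groups are also apart for *Hist1h1c* in the *Rnf2* hippocampi, *Hist1h2bc* in the cortices and *Hist2h2be* in the *Kdm2b* hippocampi and cortices.

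In neurospheres, H1 and several H2B and H4 members were lower in cKO, and H3 members were higher. Of 30 members tested (mean of at least 0.5 FPKM), 10 (33.3%) were lower and 5 (16.7%) higher by more than 0.4 on the log2 scale with p under 0.05, the study's thresholds, applied in limma on log2(FPKM + 1). Over all 12227 genes tested, 13.2% were lower and 11.4% higher. The median log2 fold change was −0.33 over the members and −0.011 over all genes. With the adjusted p under 0.05, 6 members stayed lower and 3 higher, against 10.2% and 9.13% of all genes. The filter used the mean over both groups, so some calls depend on it. *Hist1h2bp* and *Hist1h4f*, both higher, had no signal in controls and were tested only because of their cKO values. *Hist2h4*, *Hist1h2ac* and *Hist1h4a*, all lower, were tested only because of their control values. Neurosphere control 1 stood apart from the rest, with a summed FPKM of 855276 against 452580 to 522964 in the other neurosphere libraries and 29.3% of it in entries without a gene name. Without it, median log2 fold changes were −0.96 for H1, −0.13 for H2A, −0.40 for H2B, 0.82 for H3 and −0.17 for H4. Without cKO 1 the median over the members was 0.0068, and without cKO 2 it was −0.72.

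The linker histones fell in all 3 entries tested, where 13.2% of all genes were called lower. *Hist1h1c* (H1.2, chr13:23738808-23740367, plus strand, no shared window), a member known to be made also with a poly(A) tail, stood at 146 and 162 FPKM in controls and at 49.1 and 63.8 in cKO. Means were 154 ± 10.9 and 56.4 ± 10.4 (SD, n = 2 each), 2.73-fold higher in controls than in cKO, with a log2 fold change of −1.44 ± 0.14 (SE) and an adjusted p of 0.00259 in limma. The groups did not overlap, as in 60% of the members tested and 66.4% of all genes. *Hist1h1b* (H1.5) was 1.80 and 2.25 in controls and 0.679 and 0.668 in cKO, a log2 fold change of −0.85 ± 0.17 (adjusted p = 0.0193, limma). *Hist1h1d* (H1.3) was 4.12 and 2.50 in controls and 1.08 and 0.796 in cKO, a log2 fold change of −1.13 ± 0.22 (adjusted p = 0.0196, limma). All 3 were also lower in cKO with the same FPKM total, with median-ratio scaling and with any library left out.

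The H1 promoters share letters. RefSeq (GRCm38.p6) gave 63 promoters for 62 member genes, and the 250 bases before the start were searched. The H1 element AAACACA lay in 5 of 6 H1 promoters and in 9 of the 63 (14.3%), against 6.25% of 32851 promoters. The CCAAT box lay in every H1, H2A and H2B promoter, in 3 of 12 H4 promoters and in 33.9% of all. TATAAA lay in 46.0% against 12.4%, and the octamer ATTTGCAT in 7 of 18 H2A and 7 of 17 H2B promoters, in no H1, H3 or H4 promoter and in 1.60% of all. Both strands were searched, and no motif holds another. The 150 bases before the start are shown for 2 H1 genes that fell and for *Hist3h2ba*, which did not pass the test (capitals mark any of the 4 motifs on either strand). The stretch of *Hist1h1b* lies at chr13:21780626-21780775 (minus strand), that of *Hist1h1c* at chr13:23738657-23738806 (plus) and that of *Hist3h2ba* at chr11:58948761-58948910 (plus).

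Hist1h1b: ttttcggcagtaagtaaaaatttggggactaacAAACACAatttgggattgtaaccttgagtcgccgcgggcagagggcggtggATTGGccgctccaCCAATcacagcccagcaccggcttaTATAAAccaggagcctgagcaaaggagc
Hist1h1c: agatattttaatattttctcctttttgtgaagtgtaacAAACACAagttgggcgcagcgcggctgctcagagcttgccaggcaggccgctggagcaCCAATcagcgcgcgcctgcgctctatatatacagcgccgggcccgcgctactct
Hist3h2ba: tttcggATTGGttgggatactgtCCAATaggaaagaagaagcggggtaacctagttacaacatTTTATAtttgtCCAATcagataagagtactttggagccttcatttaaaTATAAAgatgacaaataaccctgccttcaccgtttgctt

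Among the core histones, 3 of 9 H2B entries tested fell and 1 rose, where 13.2% of all genes were called lower and 11.4% higher. *Hist1h2bc*, an H2B gene with known polyadenylated RNA, was 95.1 and 98.0 FPKM in control neurospheres and 55.2 and 77.6 in cKO, without overlap. Its log2 fold change in limma was −0.55 ± 0.16 (adjusted p = 0.0602). With the same FPKM total it was −0.43 and missed the threshold. Without control 1 or control 2, p in limma was 0.0592 or 0.0766, and without cKO 1 the log2 fold change was −0.31. *Hist1h2bj* was 1.70 and 2.24 in controls and 0.499 and 0.652 in cKO (log2 fold change −0.91 ± 0.18, adjusted p = 0.0199, limma). *Hist1h2bg*, with 39.0% of its windows shared, was 11.0 and 3.81 in controls and 3.205 and 1.63 in cKO, a wide spread in controls (log2 fold change −1.19 ± 0.45, adjusted p = 0.112, limma), and its p in limma was 0.167 without control 1 and 0.192 without cKO 2. *Hist1h2bg* also missed the threshold without a trend or without the filter. *Hist1h2bp* was listed at 0 in both controls and at 1.26 and 1.66 in cKO (adjusted p = 0.00853, limma), so no fold is given. *Hist2h2be*, the third member with known polyadenylated RNA, was 2.59 and 3.28 in controls and 3.94 and 3.26 in cKO.

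**Figure D3:**
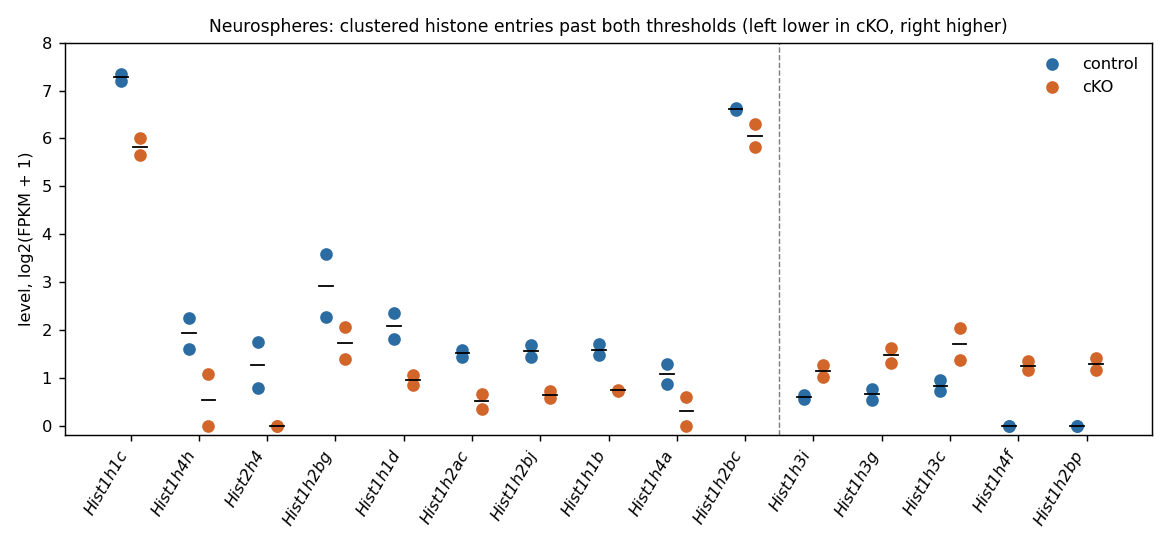
Level on the log2(FPKM + 1) scale of the 15 neurosphere entries past both thresholds, 1 point per library with group means as black lines. The 10 entries left of the dashed line are lower in cKO and the 5 right of it higher. Their groups do not overlap, which also holds for 66.4% of all genes tested, and the entries were picked by the same values.

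H2A and H4 moved unevenly. Of 3 H2A entries tested, *Hist1h2ac*, which lies beside *Hist1h2bc* on chromosome 13, was 2.01 and 1.72 in controls and 0.272 and 0.595 in cKO (log2 fold change −1.01 ± 0.19, adjusted p = 0.0180, limma). Of 8 H4 entries, 3 fell and 1 rose, where 13.2% of all genes were called lower and 11.4% higher. *Hist2h4*, *Hist1h4a* and *Hist1h4f* passed the filter only through the group where they were high. *Hist1h4h* was 3.79 and 2.06 in controls and 1.13 and 0 in cKO (log2 fold change −1.39 ± 0.40, adjusted p = 0.0581, limma), and without control 1 its p in limma was 0.0867. *Hist2h4* was 0.721 and 2.37 in controls and listed at 0 in both cKO libraries (adjusted p = 0.0470, limma), and *Hist1h4a* was 0.821 and 1.44 against 0 and 0.520 (adjusted p = 0.102, limma). Without cKO 1 *Hist1h4a* missed the p threshold, at −0.47, as it did with a pseudocount of 0.1. *Hist1h4f* was listed at 0 in both controls and at 1.24 and 1.55 in cKO (adjusted p = 0.00886, limma). *Hist1h4i*, the highest H4 entry, had 12.8 and 10.5 in controls and 7.31 and 26.2 in cKO: the cKO libraries lay on either side of the controls. Its log2 fold change of 0.26 became 1.12 without cKO 1 and −0.60 without cKO 2.

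H3 went the other way. All 4 H3 entries tested had a positive log2 fold change as deposited, with the same FPKM total, with median-ratio scaling and with any library left out. Both thresholds were passed by 3, where 11.4% of all genes were called higher. *Hist1h3g* was 0.712 and 0.460 FPKM in controls and 1.48 and 2.10 in cKO (log2 fold change 0.81 ± 0.20, adjusted p = 0.0361, limma). *Hist1h3c* was 0.648 and 0.951 against 3.10 and 1.61 (log2 fold change 0.87 ± 0.25, adjusted p = 0.0590, limma), and *Hist1h3i*, with 52.7% of its windows shared, was 0.486 and 0.573 against 1.04 and 1.41 (log2 fold change 0.54 ± 0.18, adjusted p = 0.0888, limma). Without control 1, *Hist1h3c* and *Hist1h3i* missed the p threshold, and *Hist1h3i* also did so without control 2 or cKO 2, with log2 fold changes of 0.42 to 0.58. The summed H3 level was 2.67 and 2.39 in controls and 8.58 and 5.51 in cKO, low beside the H1 sum of 153 and 167 in controls. A further 3 entries name genes of several families and were counted in none of them. Their log2 fold changes were −0.40 to −0.36, and none was called.

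S phase genes were higher in the same cKO cultures. All 24 genes of an S phase list (replication licensing, polymerase and nucleotide supply) were called higher in cKO neurospheres on the same test, with log2 fold changes of 0.66 to 1.41, a median of 1.09 and adjusted p of at most 0.00755 in limma. The direction held for all 24 with the same FPKM total, with median-ratio scaling and with any library left out. *Mcm2*, a subunit of the replicative helicase, was 26.2 and 26.6 FPKM in controls and 64.0 and 61.0 in cKO (adjusted p = 0.0013, limma). *Mcm3*, *Mcm5* and *Mcm6* of the same complex and the joint entry of *Ccna2*, cyclin A2, rose by 1.13 to 1.27 on the log2 scale. The summed level of the 24 genes was 653 and 655 in controls and 1365 and 1438 in cKO, and control 1 did not stand apart in this sum.

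Genes that handle histone RNA and protein were read against the 11.4% of all genes called higher. Of 14 genes for histone RNA transcription, processing and decay tested, 2 were higher and none lower. *Slbp*, which binds the stem-loop, was 19.9 and 22.9 in controls and 34.2 and 38.3 in cKO (log2 fold change 0.74 ± 0.11, adjusted p = 0.00769, limma), and *Casp8ap2*, a factor of the histone locus body, rose by 0.45 (adjusted p = 0.0320, limma). Of 12 histone chaperones 5 were higher: *Chaf1b* by 1.39, *Asf1b* by 1.14, *Chaf1a* by 1.00 and *Nasp* by 0.92, which deposit or store newly made H3 and H4 or their dimers, and the joint entry of *Hjurp*, the chaperone of the centromeric H3, by 0.45. Of 11 genes listed as replication-independent histones, 6 were higher and none lower, and how their RNA ends was not tested. *H2afx* was 96.7 and 98.2 against 177 and 210, *Cenpa* 33.0 and 32.4 against 58.9 and 72.7 and *H2afz* 272 and 225 against 389 and 603. For these 3 the groups did not overlap. *H2afy* and *H1fx* rose by 0.58 and 0.46.

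**Figure D4:**
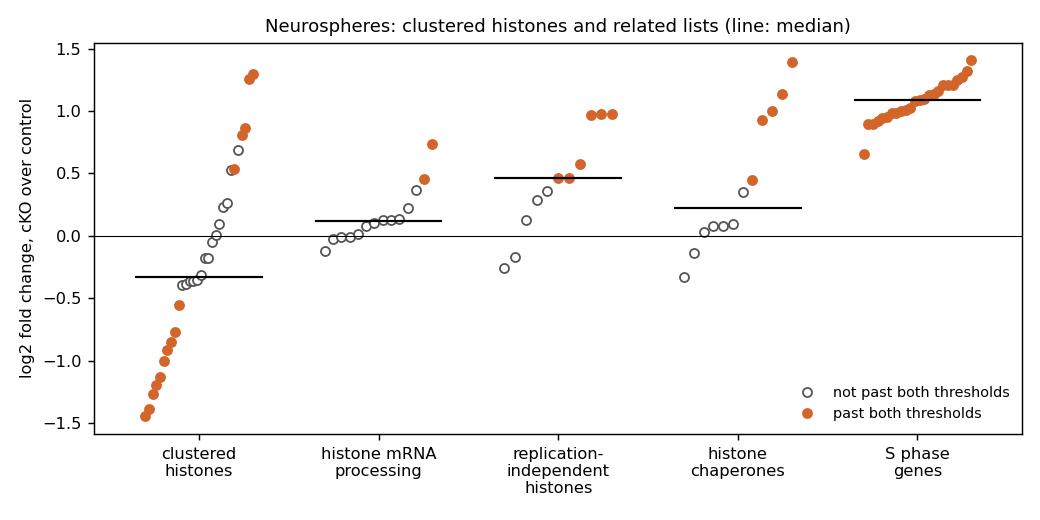
Log2 fold change of cKO over control in neurospheres for the 30 clustered histone entries tested and 4 related lists, 1 point per gene, filled where past both thresholds, with the list median as a line. The S phase genes lie above 0 throughout, and the clustered histones lie on both sides of 0 (the highest points, *Hist1h2bp* and *Hist1h4f*, are listed at 0 in both controls, so their plotted values depend on the added 1).

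Other markers in the neurospheres were summed for each library. The 5 neuron markers summed to 196 and 206 FPKM in controls and 179 and 149 in cKO, and the 5 progenitor markers to 2830 and 2484 against 2716 and 3638. Of the progenitor markers *Nes* was called higher and *Hes5* lower. Blood, choroid plexus and microglia markers summed to at most 3.40 FPKM in any neurosphere library, and meningeal and endothelial markers to at most 6.29. Of RNAs made without a poly(A) tail, *Mir6236* stood at 136383 FPKM in control 1, at 7147 in cKO 2 and at 0 in the other neurosphere libraries. Their part in the histone values was not tested. In bulk samples, fewer cells of a type and less RNA per cell cannot be told apart.

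In the *Kdm2b* hippocampus, 4 of 18 members tested were higher in cKO (22.2%, against 3.89% of 13446 genes) and none lower (against 2.25%). These are members of low level, and the median log2 fold change was 0.025 over the members and 0.0084 over all genes. *Hist3h2bb-ps*, an H2B pseudogene between *Hist3h2ba* and *Hist3h2a* (chr11:58954048-58954512, minus strand, no window shared), was the only one with an adjusted p under 0.05, where 2.94% of all genes were higher and 1.47% lower. Its level was 2.19, 2.03 and 2.27 FPKM in controls and 3.07, 4.43 and 4.30 in cKO, without overlap (log2 fold change 0.63 ± 0.13, adjusted p = 0.0190, limma). Groups did not overlap in 22.2% of the members tested and 29.2% of all genes. *Hist1h2ai* was 0.804, 1.28 and 0.884 against 1.54, 1.70 and 2.26 (log2 fold change 0.51 ± 0.14, adjusted p = 0.0583, limma), but 86.1% of its windows are found in other H2A genes.

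The remaining pair are H4 genes with values near 1 FPKM. *Hist1h4d* was 0.897, 0 and 1.09 in controls and 1.71, 1.24 and 1.49 in cKO (log2 fold change 0.64 ± 0.25, adjusted p = 0.156, limma). *Hist1h4h* was 0.312, 0.294 and 0.801 in controls and 2.41, 1.46 and 0.674 in cKO, with overlap (log2 fold change 0.73 ± 0.24, adjusted p = 0.104, limma). Its control mean was below the filter of 0.5 FPKM, so it was tested only because of its cKO values. Without cKO 1, *Hist1h4d* (log2 fold change 0.58) and *Hist1h4h* (0.48) missed the p threshold, which left 2 members called higher. *Hist1h4d* also missed it without control 2 (0.31) or cKO 3 (0.64), and with a pseudocount of 0.1. The members with known polyadenylated RNA were not called: *Hist1h1c* was 5.17, 4.42 and 5.55 against 4.76, 6.65 and 3.62, *Hist1h2bc* 14.3, 11.97 and 8.76 against 12.7, 15.3 and 5.75, and *Hist2h2be* 3.89, 3.996 and 4.96 against 5.05, 6.25 and 5.37. For *Hist2h2be* the groups did not overlap and the log2 fold change was 0.31 (adjusted p = 0.123, limma), under the size threshold, and 0.40 without control 3, which passed both. *Hist1h4i* was 7.55, 4.90 and 8.53 against 4.90, 6.60 and 3.36, and its log2 fold change of −0.43 had a p of 0.0800 in limma. It passed both thresholds without control 2 (−0.64) or cKO 2 (−0.63).

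Of the related lists in the hippocampus, no S phase gene of 24, no chaperone of 12 and no replication-independent histone of 11 was called. The log2 fold change was positive for 20, 9 and 10 of them, and the S phase median was 0.14 against 0.0084 over all genes. Of the replication-independent histones, 2 had an adjusted p under 0.05 in limma, below the size threshold. *Lsm11*, a U7 snRNP subunit, fell by 0.47 on the log2 scale (34.3, 44.8 and 33.1 FPKM against 25.7, 25.0 and 28.9, adjusted p = 0.0308, limma). *Rpph1*, the RNA of RNase P and 1 of 2 genes tested of those made without a poly(A) tail, was lower (adjusted p = 0.0830, limma). Among markers, 2 of 4 hippocampal identity genes, 2 of 5 progenitor genes, 2 of 3 choroid plexus genes tested and 2 of 5 microglial genes were called higher in cKO. Over all genes tested, 3.89% were called higher. No neuron marker of 5 was called, but their sums did not overlap (537, 561 and 536 FPKM in controls and 532, 456 and 469 in cKO), and 2 had an adjusted p under 0.05 below the size threshold, *Tbr1* with a log2 fold change of 0.27 and *Map2* with −0.21. Progenitor sums were 881, 828 and 854 against 875, 749 and 774, although 4 of the 5 genes had a positive log2 fold change (median 0.33). Of the 5, 4 had an adjusted p under 0.05 in limma. Sums ranged over 4.97 to 16.1 FPKM for choroid plexus in controls and 6.92 to 59.2 in cKO, and over 26.9 to 31.1 and 33.6 to 43.8 for microglia. Their part in the histone values was not tested.

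The change in cKO differed between neurospheres and hippocampus for 3 of 13 members tested in both tables (against 26.9% of 11075 genes, limma interaction, adjusted p under 0.05). *Hist1h1c* had a log2 fold change of −1.44 in neurospheres and of −0.035 in hippocampus, a difference of −1.41 ± 0.25 (SE, adjusted p = 0.00245, limma). *Hist1h2bj* had −0.91 and 0.21, a difference of −1.12 ± 0.27 (adjusted p = 0.0106, limma). *Hist1h4h* had −1.39 and 0.73, a difference of −2.12 ± 0.50 (adjusted p = 0.00966, limma). It was the only member called in more than 1 comparison, and it was called in opposite directions. Neither call had an adjusted p under 0.05 in limma, and in hippocampus *Hist1h4h* was tested only because of its cKO values. For *Hist3h2ba* the difference was −0.025 ± 0.15 (adjusted p = 0.923, limma), with 0.030 and 0.0054 in the tables. *Hist1h2bc*, lower in neurospheres, had a difference of −0.43 ± 0.44 (adjusted p = 0.501, limma), which did not pass the test.

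**Figure D5:**
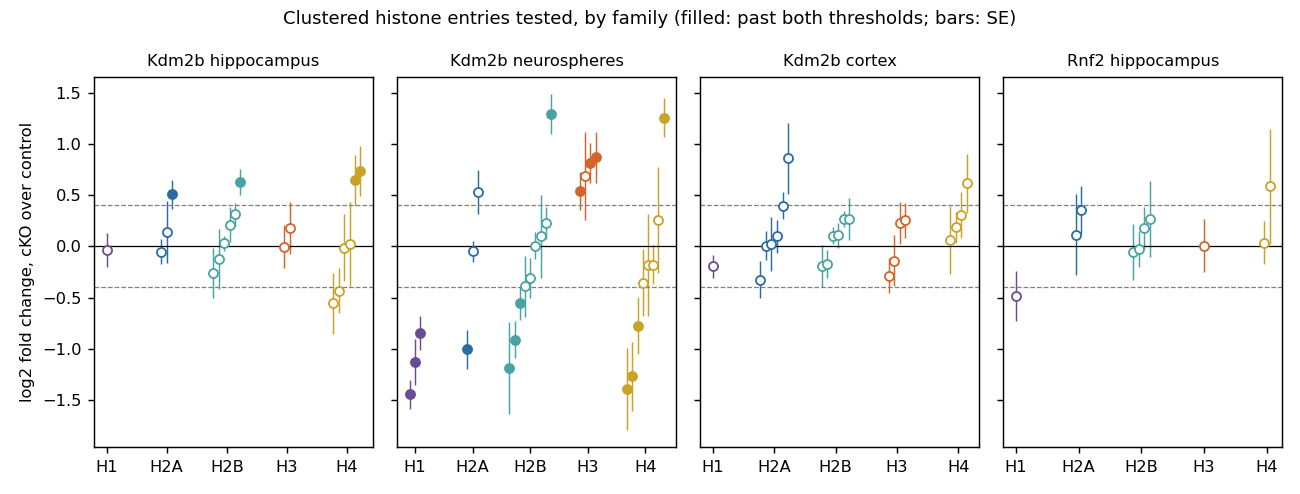
Log2 fold change of cKO over control with its SE for each member tested, in columns by histone family and with 1 panel per comparison (entries naming several families are left out, dashed lines mark 0.4 in size, filled points passed both thresholds). Filled points are seen in the hippocampus above 0 and in the neurospheres on both sides, and in neither of the other panels.

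In the *Kdm2b* cortex no member of 21 tested was called in either direction, where 4.73% of 15691 genes were called higher and 2.28% lower. Without the size threshold, 2 members had an unadjusted p under 0.05 and none an adjusted one, and limma-voom on the recovered reads called 1, *Hist1h2ai*, higher. Those 2 are *Hist1h2bc*, at 6.48 and 5.90 FPKM against 7.75 and 7.54 (log2 fold change 0.27 ± 0.083, adjusted p = 0.295, limma), and *Hist1h2ao*, at 1.32 and 1.47 against 2.44 and 1.89 with 91.5% of its windows shared (log2 fold change 0.40 ± 0.13, adjusted p = 0.317, limma). The median was 0.10 over the members and −0.0053 over all genes. *Hist1h1c* was 7.53 and 6.79 against 6.69 and 5.59, a log2 fold change of −0.20 ± 0.11 (adjusted p = 0.548, limma), and *Hist1h4h* 0.966 and 0.200 against 1.73 and 1.02, which rest on 10, 2, 16 and 9 reads. Control 2 had the lowest summed level (241 FPKM). Without control 1, 6 members were called higher, while the genes called higher went from 742 to 1226, with *Hist1h4h* (log2 fold change 0.97) and *Hist1h4i* (0.63) among the members. *Hist1h4i* was 10.05 and 6.08 FPKM against 9.18 and 10.7, *Hist3h2a* 16.6 and 11.99 against 16.1 and 14.3, and *Hist2h2be* 6.95 and 7.40 against 8.12 and 7.45. Only the last of these had groups that did not overlap, as in 44.8% of all genes. No gene of the S phase, chaperone or RNA processing lists was called, and of the replication-independent histones *H2afj* was called higher (adjusted p = 0.380, limma). All 5 meningeal markers were called higher in cKO, with sums of 1.17 and 1.80 FPKM in controls and 24.3 and 16.3 in cKO, and blood markers summed to 435 and 454 against 711 and 623. Endothelial markers summed to 33.7 and 33.3 against 53.9 and 53.5 and microglial markers to 9.70 and 9.32 against 18.2 and 12.6, with 2 of 5 called higher in each list. Their part in the histone values was not tested.

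In the *Rnf2* hippocampus no member of 10 tested was called, where 2.86% of 15764 genes were called higher and 1.85% lower, and none had an unadjusted p under 0.05 in limma or a call in limma-voom. *Hist1h1c* was 7.71 and 7.46 FPKM in controls (180 and 181 reads) and 3.802 and 6.85 in cKO (98 and 173 reads). The groups did not overlap, as in 38.3% of all genes, and the log2 fold change was −0.48 ± 0.24 (adjusted p = 0.727, limma). Without cKO 2 it was −0.84 and passed both thresholds. *Hist2h2be* was 4.52 and 6.08 against 4.64 and 5.66, and *Hist1h2bc* 3.41 and 3.67 against 2.30 and 4.76, both with overlap. *Hist3h2a* was 4.05 and 4.88 against 4.62 and 7.63, and without cKO 1 it was 1 of 2 members called higher. *Hist1h4h* was below the filter, at 0.142 and 0.137 in controls and 0.773 and 0.526 in cKO, which are 1, 1, 6 and 4 reads. The cKO 2 library had the highest histone sum (108 FPKM) and cKO 1 the lowest (71.1). Of 23 S phase genes tested *Rfc4* was called lower (adjusted p = 0.674, limma), and of 11 replication-independent histones *H3f3a* was called higher (adjusted p = 0.531, limma). Of the meningeal markers 3 of 5 were called lower, with sums of 27.27 and 27.28 FPKM in controls and 12.7 and 19.6 in cKO. Choroid plexus markers summed to 7.53 to 240 FPKM over the 4 libraries, highest in cKO 1. Their part in the histone values was not tested.

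The targeted genes were not shown to differ at this resolution. *Kdm2b*, of which 1 exon is deleted, stood at 28.1 to 31.9 FPKM in control hippocampi and 26.2 to 28.2 in cKO, at 21.9 and 22.2 against 22.5 and 23.7 in neurospheres and at 15.7 and 16.9 against 14.9 and 14.7 in cortices. A value for the whole gene does not check the loss of that exon. *Rnf2* stood at 32.3 and 30.8 in control hippocampi and at 28.5 and 27.8 in *Rnf2* cKO hippocampi (adjusted p = 0.762, limma), without overlap. Such a value does not check the *Rnf2* deletion either. The paper reports much less ubiquitinated H2A in neonatal neocortex of this mutant. The cortex and *Rnf2* tables gave whole reads when FPKM was multiplied by gene length (18480500 to 21905200 and 14654900 to 16334400 reads per library), and the depth of the other libraries is unknown.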

How the data were processed

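The study made libraries from poly(A)-selected RNA with a kit that does not mark strand and sequenced paired reads. Per the labels, reads were processed with cutadapt, STAR, Cufflinks 2.2.1 and DESeq2 on GRCm38 (mm10). The values deposited by the authors are FPKM, 1 table per comparison. The processing of the cortex and *Rnf2* tables is not given in the sources used here.

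From these tables, named genes whose mean over both groups reached 0.5 FPKM were fitted as log2(FPKM + 1) within each table. The fit used limma 3.58.1 in R 4.3.3 (eBayes with a trend, two-sided). Calls followed the study's thresholds: more than 0.4 on the log2 scale in either direction, with p below 0.05 before adjustment. Adjusted p is Benjamini-Hochberg over all genes. Fold changes on this scale understate the change of low genes. The fit was tested on simulated data. In the cortex and *Rnf2* tables, 100% of values under 1000 reads were whole within 0.05 after multiplying by gene length. There, limma-voom ran on these reads. Stem-loops and 150-base windows were read from GENCODE vM21 transcripts and promoters from RefSeq.

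Members called in a comparison are named if 12 or fewer, otherwise the 12 with the smallest p. *Hist1h3i*, *Hist1h4a*, *Hist1h2bg* and some uncalled members were named after their values were seen. The 5 highest entries per table, entries called in 2 or more comparisons, the polyadenylated and germline members and up to 5 called genes per related list are named too. Members and lists were chosen with earlier results of these data known. Alternatives (pseudocount, filter, scaling, replicate block, adjusted p, libraries left out) were refitted.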

Additional observations from a re-analysis of the deposited data

Results flagged for a closer look

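The cKO change in neurospheres differed from that in hippocampi, by the interaction term of limma fitted over both tables, for 3 of 13 clustered histone members tested, against 26.9% of all genes, so the count itself does not set the members apart. The difference of log2 fold changes (neurospheres minus hippocampus) was −1.41 for *Hist1h1c*, −1.12 for *Hist1h2bj* and −2.12 for *Hist1h4h*. *Hist1h1c* and *Hist1h2bj* were lower in 2 of 2 cKO neurosphere libraries than in either control, while their hippocampal groups overlapped. *Hist1h4h* was lower in 2 of 2 cKO neurosphere libraries and higher than all controls in 2 of 3 cKO hippocampi, at levels under 4 FPKM. In hippocampus it passed the filter only through its cKO values. The tables were normalized separately, so table and sample type (tissue or culture) cannot be told apart.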

How the results depend on the processing

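With the adjusted p in place of p, members called higher were 1 in the *Kdm2b* hippocampus and 3 in neurospheres, and 6 were lower in neurospheres. With no filter on low values, members called higher were 9 in neurospheres, 2 in the cortex and 2 in the *Rnf2* hippocampus, with 1 lower there, and 7 members passed the interaction test. Of all genes, 1404 were then higher in neurospheres and 811 in the cortex, against 1392 and 742. Where the mean had to reach 1 FPKM, 2 were higher in neurospheres and 1 passed the interaction test. In the cortex 1 member was higher with a pseudocount of 0.1, 1 with the same FPKM total, 1 in limma-voom and 2 with no fold threshold. Of all genes there, 924, 677, 1051 and 1212 were higher in these fits. With the same FPKM total, 6 members passed the interaction test. Leaving out each library in turn gave 2 to 6 higher and 0 to 2 lower in the *Kdm2b* hippocampus, 3 to 8 and 7 to 12 in neurospheres, 0 to 6 and 0 to 1 in the cortex and 0 to 2 and 0 to 1 in the *Rnf2* hippocampus. Medians ranged over 0.036 to 0.23 in the *Kdm2b* hippocampus (highest without cKO 3), −0.72 to 0.0068 in neurospheres, −0.0053 to 0.24 in the cortex and −0.12 to 0.40 in the *Rnf2* hippocampus. Where this left 1 library in a group, it was assumed to vary like the others. Fewer genes or libraries enter some of these fits, and otherwise the cause was not tested. The interaction counts of these fits and the counts without a library are given without the share of all genes. They therefore do not set the members apart. With the same FPKM total, the median of all genes in neurospheres was 0.094, with 1256 genes called higher and 830 lower against 1392 and 1620, and members split 7 and 9 against 5 and 10. With that total taken without *Mir6236*, chosen after seeing the data, members split 5 and 10.

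Deviations of same-numbered libraries were correlated with either sign. The r was 0.0491, −0.1029 and −0.0858 in the *Kdm2b* hippocampus, −0.277 in neurospheres, −0.0528 in the cortex and 0.161 in the *Rnf2* hippocampus. With 2 libraries per group, crossed pairs have the same r with the opposite sign. No direction was shared by the tables, so numbers were taken as names. With the replicate block, 4 members were higher in the *Kdm2b* hippocampus, 5 higher and 10 lower in neurospheres, 2 higher in the cortex and none in the *Rnf2* hippocampus, and 3 passed the interaction test. Of all genes, 520 were then higher in the *Kdm2b* hippocampus, 1380 in neurospheres and 788 in the cortex. The crossed pairing in neurospheres, added after seeing the data, gave 5 and 10. Entries that name several genes do not occur among the members of the cortex and *Rnf2* tables, so they were not left out there. Depth is unknown for the *Kdm2b* hippocampus and neurospheres, so counting error was not separated for members near 1 FPKM.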
